A study of Mus musculus with 3 samples.

Results

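The genes described here encode 10 C-type lectin-like receptors of natural killer cells and other lymphocytes: the NKG2 chains Klrc1, Klrc2 and Klrk1, the CD94 chain Klrd1, the related chains Klre1 and Klri2, the NKR-P1 receptors Klrb1b, Klrb1c and Klrb1f, and Klrg1. They were chosen by symbol, and all 10 were found among the 37224 Ensembl genes of the count files. RNA was sequenced from 3 leukocyte populations sorted out of the intestinal epithelium of mice with a RAG-2 null genotype, which all 3 share and which leaves a host without rearranged antigen receptors on T and B cells. For iCD8a the sort took CD45-positive cells bearing CD8α. ILC1, the group 1 innate lymphoid cells, were sorted on NKp46 and NK1.1. Myeloid cells, the source of the CD11b+ library, were CD45-positive with CD11b and without CD8α. The sources used here give neither strain, age nor sex, nor the number of mice behind a library. With 1 library for each population, the differences below have no replicate check and were not tested. The gene counts summed to 21678113 (iCD8a), 22181660 (ILC1) and 30511296 (CD11b+).

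These receptors mostly sit in the membrane as dimers and read ligands on neighbouring cells. CD94 pairs with NKG2A, the inhibitory product of Klrc1, or with NKG2C, the activating product of Klrc2, and the dimers bind the nonclassical class I molecule Qa-1. NKG2D, the product of Klrk1, is an activating homodimer that binds stress-induced ligands and signals through the adaptors DAP10 and DAP12. Some NKR-P1 receptors bind lectins of the Clec2 family, whose genes lie among those of the receptors, and KLRG1 is an inhibitory receptor for cadherins of epithelial and other cells. In the gut epithelium such receptors are known to help set the threshold at which intraepithelial lymphocytes kill.

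Levels are given in CPM, read counts relative to the library's gene total after TMM scaling, with a 95% exact Poisson interval of the count in parentheses. A fold is a ratio of such levels with its 95% exact conditional binomial interval. Both intervals cover counting error only and not the spread between animals, and PCR reads that carry no molecular identifier may count a molecule again. Calling a gene apart between 2 libraries required a fold of 4 or more, an interval whose near bound was 2 or more, and 5 CPM or more in the library with the higher level. Ratios between different genes are taken per kilobase of merged exon, with lengths from GENCODE M21, which may differ from the annotation the authors counted on. The intervals of such ratios do not cover the choice of length. Sums of CPM over several genes, the part of a gene in such a sum and rankings given in CPM are not corrected for length. In bulk libraries, fewer cells carrying a transcript and less transcript per cell cannot be told apart.

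Cd8a, Ncr1 and Itgam were each highest in the library gated on their product, and Itgam, the CD11b gene, was also read in the others. Ptprc, which encodes CD45, was at 2136 CPM (iCD8a), 2695 (ILC1) and 1795 (CD11b+). Cd8a had 2636 CPM (iCD8a), 4.41 (ILC1) and 28.3 (CD11b+). Ncr1, which encodes NKp46, was at 1.44, 396 and 2.23 CPM, and Itgam at 362, 187 and 845. The summed level of 5 plasmacytoid dendritic cell markers was 647 CPM (iCD8a), 88.6 (ILC1) and 150.0 (CD11b+), with 5, 2 and 5 of them at 1 CPM or more. Of 9 T cell markers 8 were in the files, with summed levels of 3151, 336 and 241 CPM and 7, 5 and 6 of them at 1 CPM or more. Cd3g alone held 2749 CPM of that sum in iCD8a and 205 in CD11b+. Trbc1 was near level at 214 CPM in iCD8a and 222 in ILC1, and Cd6 was highest in CD11b+ at 7.3. For 8 macrophage and monocyte markers the sums were 374, 549 and 8271 CPM, and for 9 epithelial markers 466, 164 and 1197. Single genes weighed heavily in these sums. In iCD8a, Itgam alone held 362 of the 374 CPM, while Lyz2 was at 6.52 CPM there, 252 in ILC1 and 4844 in CD11b+. Epcam at 154 CPM and Cdh17 at 193 held most of the epithelial sum in iCD8a, whereas Krt8 was at 19.3 there and 23.4 in ILC1. The part of these other cell types in the receptor levels was not tested.

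In the GENCODE M21 gene order of mouse chromosome 6, 8 receptor genes of the NKG2 and CD94 group follow one another without another protein-coding gene between them: Klre1, Klrd1, Klrk1, Klrc3, Klrc2, Klrc1, Klri1 and Klri2. Klrb1a, Klrb1, Klrb1c, Klrb1b and Klrb1f lie in a second group, interleaved with Clec2 ligand genes, and Klrg1 lies apart on the same chromosome. RefSeq promoter windows were matched for 7 of the 10 members, all but Klrd1, Klri2 and Klrg1. The 250 bases before the annotated gene start were searched on both strands. The RUNX core TGTGGT (or ACCACA on the other strand) was present in 6 of their 10 windows, those of Klrc1, Klrc2, Klrk1, Klre1 and Klrb1c, against 14.0% of the 32851 windows of that length. The T-box core TCACAC was present in 1 of the 10, a window of Klre1, against 12.3% of all windows, and the ETS core GGAAG in 6 of the 10 against 64.1%. Each core was searched by itself, on both strands, so matches of different cores may overlap. The motifs were searched with the levels known, 2 windows each of Klrc2 and Klrb1b overlap, and a match is a description of letters only. Of the windows printed, that of Klrb1c belongs to a gene that iCD8a held at 38.0% of its ILC1 level, and those of Klrk1 and Klrc1 to genes it held at under 1%. Capitals mark the RUNX core. The Klrb1c window is chr6:128788642-128788891, that of Klrk1 chr6:129623865-129624114 and that of Klrc1 chr6:129678974-129679223, all RefSeq on GRCm38.p6, minus strand, printed 5′ to 3′ along the gene.
Klrb1c: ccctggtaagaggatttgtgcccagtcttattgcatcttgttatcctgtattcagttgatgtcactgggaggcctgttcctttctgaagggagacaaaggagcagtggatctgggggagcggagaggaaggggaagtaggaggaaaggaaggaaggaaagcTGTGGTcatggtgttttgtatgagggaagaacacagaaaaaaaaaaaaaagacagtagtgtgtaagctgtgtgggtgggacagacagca
Klrk1: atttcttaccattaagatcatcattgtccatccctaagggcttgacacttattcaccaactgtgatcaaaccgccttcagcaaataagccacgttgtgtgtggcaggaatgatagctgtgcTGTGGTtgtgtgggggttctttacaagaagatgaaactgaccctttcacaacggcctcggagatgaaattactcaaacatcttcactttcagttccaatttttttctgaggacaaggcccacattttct
Klrc1: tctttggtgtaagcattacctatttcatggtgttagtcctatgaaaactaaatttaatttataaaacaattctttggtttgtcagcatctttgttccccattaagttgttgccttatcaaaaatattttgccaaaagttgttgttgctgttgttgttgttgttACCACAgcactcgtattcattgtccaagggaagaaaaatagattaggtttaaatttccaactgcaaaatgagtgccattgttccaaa

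The 3 populations differed in how much of the receptor set they carried. All 10 genes had their highest level in the ILC1 library, where the sum over the members was 4126 CPM (4100 to 4153). Klrb1c, which encodes NK1.1, a marker of the ILC1 sort, made up 13.2% of that sum. The sum was 462 CPM (454 to 471) in iCD8a and 149.6 CPM (145 to 154) in CD11b+. Klrd1 and Klrb1c made up most of what iCD8a carried: per kilobase of exon they took 90.3% of the summed member level in iCD8a, 29.5% in ILC1 and 54.1% in CD11b+. The plot of member levels by library shows the ILC1 points above all others, with iCD8a close beneath them at Klrd1 and Klrb1c.

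**Figure D1:**
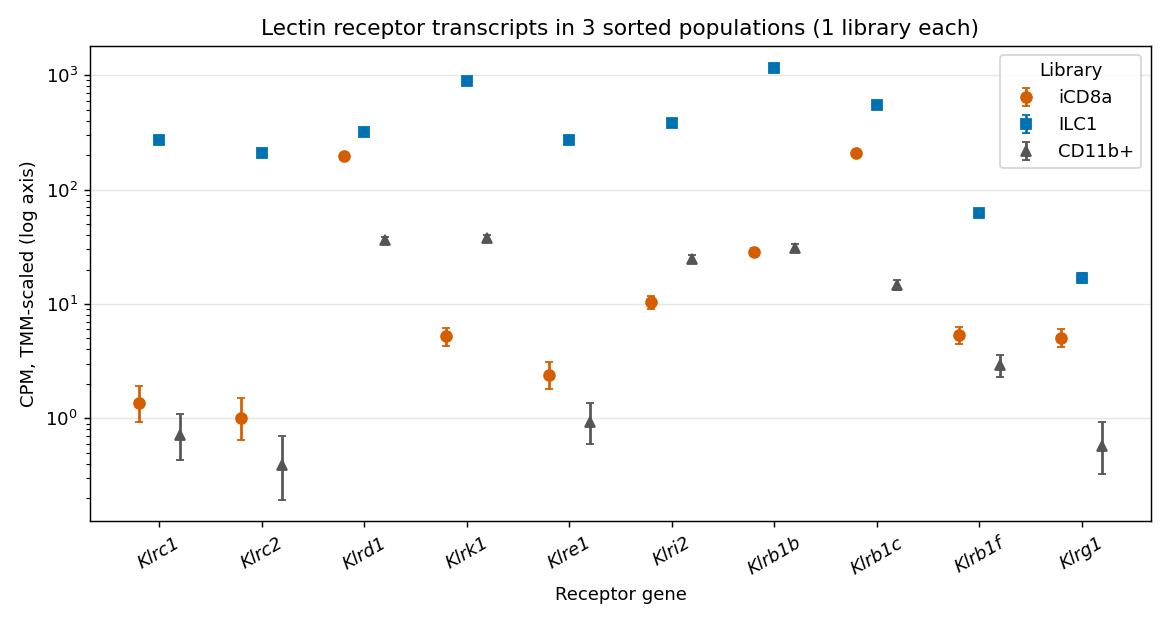
Level of each of the 10 receptor genes in CPM (log axis) in the iCD8a, ILC1 and CD11b+ libraries, with 95% exact Poisson intervals of the counts. ILC1 is highest for every gene, and iCD8a comes nearest to it at Klrd1 (196 against 317 CPM) and Klrb1c (207 against 546 CPM). Klrb1c encodes NK1.1, a marker of the ILC1 sort.

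Compared with the ILC1 library, iCD8a carried less of 7 of the 10 receptors by the rule, Klrc1, Klrc2, Klrk1, Klre1, Klri2, Klrb1b and Klrb1f, and more of 0. Of all genes that reached 5 CPM in either library, 4.89% were called higher in ILC1 and 3.52% higher in iCD8a. The median log2 ratio of iCD8a over ILC1 was −5.27 over the 10 members and 0.04 over the 13649 genes that reached 1 CPM in any library. Klrd1, Klrb1c and Klrg1 did not pass the rule, and their levels in iCD8a were 61.7%, 38.0% and 30.2% of those in ILC1. The other seven ranged from 0.487% of the ILC1 level for Klrc2 to 8.55% for Klrb1f.

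Natural killer markers measured beside them were also divided between these libraries. Eomes, a T-box factor of natural killer cells, and Ncr1 stood in iCD8a at 0.132% and 0.363% of their ILC1 levels. Ncr1 encodes NKp46, a marker of the ILC1 sort, so its level in ILC1 was selected by the gate and is no finding. Tbx21, which encodes T-bet, was at 32.7%, the pore-forming protein Prf1 at 87.4% and the cytokine receptor chain Il2rb at 116%. Over the 8 natural killer markers listed, the shares ran from 0.132% for Eomes to 173% for the integrin chain Itga1, and their part in the receptor shares was not tested.

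Klrd1 (ENSMUSG00000030165), the CD94 chain, had 196 CPM (190.2 to 202) in iCD8a, 317 CPM (310 to 325) in ILC1 and 36.0 CPM (33.9 to 38.3) in CD11b+. Its order was ILC1, iCD8a, CD11b+, with no overlap between intervals. ILC1 exceeded iCD8a by 1.62-fold (1.56 to 1.68), which does not pass the rule. Over CD11b+, iCD8a was 5.43-fold higher (5.08 to 5.82) and ILC1 8.8-fold higher (8.24 to 9.41).

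Klrc1 (ENSMUSG00000030167), which encodes NKG2A, had 1.35 CPM (0.926 to 1.91) in iCD8a, 272 CPM (265 to 279) in ILC1 and 0.709 CPM (0.433 to 1.09) in CD11b+. Klrc2 (ENSMUSG00000052736), which encodes NKG2C, had 1.02 CPM (0.651 to 1.51), 209 CPM (203 to 215) and 0.39 CPM (0.195 to 0.698) in the same order. Both genes were abundant in ILC1 alone among these libraries, and their iCD8a and CD11b+ values rest on 32 and 20 counts for Klrc1 and on 24 and 11 for Klrc2. The iCD8a and CD11b+ intervals overlap for both genes, while the ratio of iCD8a over CD11b+ was 1.91 (1.06 to 3.52) for Klrc1 and 2.6 (1.23 to 5.89) for Klrc2. ILC1 exceeded iCD8a by 201-fold (142 to 294) for Klrc1 and by 205-fold (138 to 321) for Klrc2. The transcripts of this pair resemble each other: 38.6% of the 50-base windows of Klrc1 and 16.3% of those of Klrc2 also occur in a transcript of another gene, chiefly each other. Reads aligned to several places were not counted, in any of the libraries, which makes the levels of this pair uncertain.

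The ratio of the CD94 chain to its NKG2 partners differed between libraries. Per kilobase of exon, Klrd1 exceeded Klrc1 by 1.81-fold (1.74 to 1.87) in ILC1, by 224-fold (158 to 328) in iCD8a and by 78.8-fold (50.7 to 129) in CD11b+. Klrd1 exceeded Klrc2 by 6.9-fold (6.64 to 7.16), 875-fold (587 to 1367) and 419-fold (233 to 843) in ILC1, iCD8a and CD11b+. With the longest transcript as length, Klrd1 exceeded Klrc1 by 2.52-fold, 312-fold and 110-fold in ILC1, iCD8a and CD11b+. The same length put Klrd1 over Klrc2 at 5.26-fold, 667-fold and 320-fold. Klrc3, the other NKG2 gene of this cluster, had 13.7 CPM in ILC1, with 2 counts in iCD8a and 1 in CD11b+. Class I ligand genes were read in every library, with H2-T23, which encodes Qa-1b, at 441 CPM (iCD8a), 375 (ILC1) and 418 (CD11b+), and B2m, the class I light chain, at 2912, 2910 and 1828. Of this pair 0 were called in any of the 3 comparisons.

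**Figure D2:**
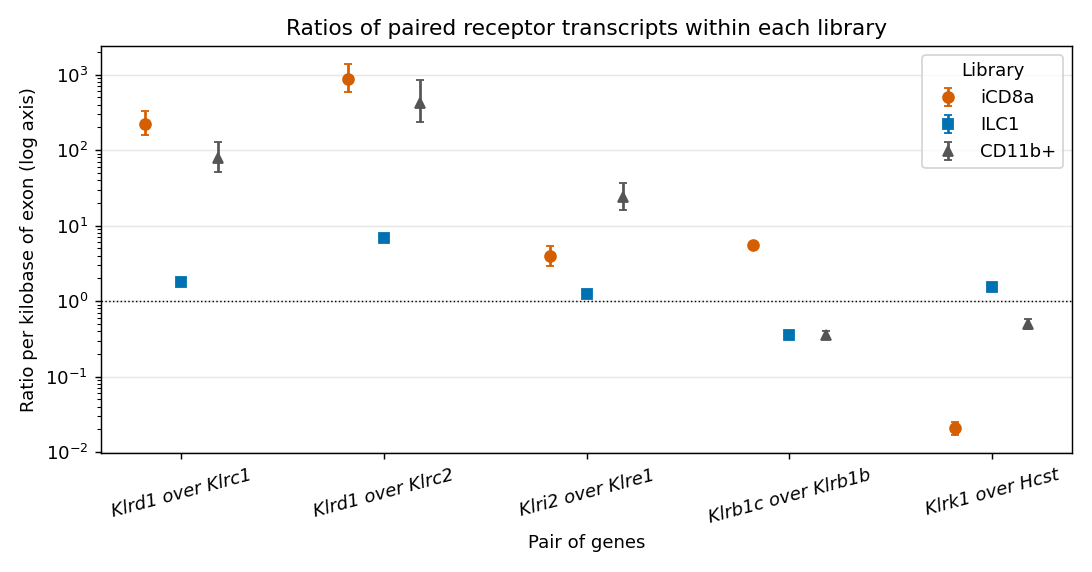
Ratio per kilobase of merged exon between receptor transcripts within each library (log axis), with 95% exact conditional binomial intervals; the dotted line marks a ratio of 1. Klrd1 exceeds Klrc1 by 1.81-fold in ILC1 and 224-fold in iCD8a, and Klrb1c exceeds Klrb1b in iCD8a alone.

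Klrk1 (ENSMUSG00000030149), which encodes NKG2D, had 5.2 CPM (4.33 to 6.21) in iCD8a, 895 CPM (883 to 908) in ILC1 and 37.5 CPM (35.2 to 39.8) in CD11b+. Its order was ILC1, CD11b+, iCD8a, with no overlap between intervals, and iCD8a held less of it than the myeloid library. ILC1 exceeded iCD8a by 172-fold (144 to 207) and CD11b+ by 23.9-fold (22.5 to 25.5), and CD11b+ exceeded iCD8a by 7.2-fold (5.97 to 8.75). Klrk1 was the only member called higher in CD11b+ than in iCD8a, and at a minimum fold of 8 it would not be called.

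Its adaptors did not share that pattern. Hcst, which encodes DAP10, was at 25.3 CPM (iCD8a), 59.0 (ILC1) and 7.51 (CD11b+), and Tyrobp, which encodes DAP12, at 1102, 394 and 726. Per kilobase, Klrk1 was 1.52-fold (1.44 to 1.61) above Hcst in ILC1, while Hcst was 2.0-fold (1.71 to 2.31) above Klrk1 in CD11b+ and 48.4-fold (39.8 to 59.2) above it in iCD8a. Of the 4 adaptor genes listed, Cd247 alone was called lower in iCD8a than in ILC1, at 14.2 against 64.8 CPM. Cd247 was called higher than in CD11b+ (1.13 CPM) in both lymphoid libraries, and Hcst in ILC1. Fcer1g, the Fc receptor γ chain that also serves NKR-P1 receptors, had 870.3 CPM (iCD8a), 410 (ILC1) and 331 (CD11b+).

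Transcripts for NKG2D ligands were low in all libraries. Of 8 genes listed, 5 were in the files and 2, Ulbp1 and H60b, reached 1 CPM in any library. H60b was at 7.63 CPM in ILC1 against 1.52 in iCD8a and 0.638 in CD11b+, and it was called higher in ILC1 against both. Ulbp1 was at 13.4 CPM in ILC1, 8.21 in iCD8a and 5.74 in CD11b+ and was called in 0 of the 3 comparisons.

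Klre1 and Klri2 encode chains that dimerise with each other into an activating receptor, while Klre1 with Klri1 forms an inhibitory one. Klre1 (ENSMUSG00000050241) had 2.37 CPM (1.79 to 3.08) in iCD8a, 272 CPM (265 to 279) in ILC1 and 0.922 CPM (0.602 to 1.35) in CD11b+. Klri2 (ENSMUSG00000043932) had 10.4 CPM (9.11 to 11.8), 382 CPM (374 to 391) and 24.8 CPM (23.01 to 26.7). Klre1 was lowest in CD11b+ and Klri2 lowest in iCD8a, with no overlap between the intervals of each gene. ILC1 exceeded iCD8a by 115-fold (88.2 to 152) for Klre1 and by 36.9-fold (32.5 to 42.0) for Klri2, and it exceeded CD11b+ by 295-fold (201 to 452) and 15.4-fold (14.3 to 16.7).

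Per kilobase of merged exon, Klri2 exceeded Klre1 by 1.26-fold in ILC1, 3.91-fold (2.91 to 5.32) in iCD8a and 24.0-fold (16.3 to 37.1) in CD11b+. With the longest transcript as length the ILC1 ratio was 0.865, so the order of this pair in ILC1 depends on the length used, while the other ratios stayed above 1, at 2.69 and 16.6. Klri1, the alternative partner, was at 15.6 CPM (iCD8a), 60.1 (ILC1) and 49.0 (CD11b+) and was called in 0 of the 3 comparisons. The CD11b+ library held transcripts of both Klri chains with 26 counts of their Klre1 partner.

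The NKR-P1 receptors divided by gene in iCD8a. Klrb1c (ENSMUSG00000030325), which encodes the activating receptor NK1.1, had 207 CPM (202 to 213) in iCD8a, 546 CPM (537 to 556) in ILC1 and 14.7 CPM (13.3 to 16.2) in CD11b+. NK1.1 was a marker of the ILC1 sort, so its level there was selected by the gate and is no finding, whereas it was not part of the iCD8a or CD11b+ gates. Between the latter libraries, iCD8a was 14.1-fold higher (12.8 to 15.6). ILC1 exceeded iCD8a by 2.63-fold (2.55 to 2.72), which does not pass the rule.

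Klrb1b (ENSMUSG00000079298), which encodes the inhibitory receptor NKR-P1B, had 28.4 CPM (26.3 to 30.6) in iCD8a, 1153 CPM (1139 to 1168) in ILC1 and 31.1 CPM (29.1 to 33.2) in CD11b+. The iCD8a and CD11b+ intervals overlap, and the ratio of CD11b+ over iCD8a was 1.09 (0.989 to 1.21), a direction that turned when counts were scaled by the total alone. ILC1 exceeded them by 40.6-fold (37.6 to 43.9) and 37.1-fold (34.7 to 39.7). Per kilobase, Klrb1b was the most abundant member in ILC1, at 518 CPM per kilobase ahead of Klrd1 at 248. Klrb1c exceeded Klrb1b by 5.5-fold (5.07 to 5.97) per kilobase in iCD8a, whereas Klrb1b exceeded Klrb1c by 2.81-fold (2.75 to 2.87) in ILC1 and 2.81-fold (2.5 to 3.16) in CD11b+. Of their 50-base windows, 5.77% for Klrb1b and 5.99% for Klrb1c also occur in another gene of the count files. A later gene model that spans both, Gm44511, covers 26.9% of Klrb1b and 13.9% of Klrb1c exon bases and is not among the counted genes. No other member shares exon bases with another gene in GENCODE M21, on either strand.

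Klrb1f (ENSMUSG00000030154), which encodes NKR-P1F, had 5.33 CPM (4.44 to 6.35) in iCD8a, 62.4 CPM (59.1 to 65.8) in ILC1 and 2.91 CPM (2.31 to 3.61) in CD11b+. Its order was ILC1, iCD8a, CD11b+ with no overlap, and ILC1 exceeded iCD8a by 11.7-fold (9.74 to 14.2). Outside the chosen members, Klrb1a, another NKR-P1 receptor gene, was at 103 CPM (iCD8a), 78.7 (ILC1) and 6.13 (CD11b+). Klrb1, the remaining gene of that group, was at 14.9, 5.73 and 1.31 CPM. Both stood higher in iCD8a than in ILC1, by 1.31-fold (1.24 to 1.4) and 2.6-fold (2.12 to 3.21), which does not pass the rule, and both were called higher in iCD8a and in ILC1 than in CD11b+. Of the 5 listed other lectin receptor genes in the files, 1, Klrc3, was called lower in iCD8a than in ILC1, and it was also called higher in ILC1 than in CD11b+.

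Clec2 genes, which include those of NKR-P1 ligands, had patterns of their own. Clec2d, which encodes Clr-b, the ligand of NKR-P1B, was near level at 58.4 CPM (iCD8a), 67.0 (ILC1) and 55.5 (CD11b+). Clec2i, which encodes Clr-g, a ligand of NKR-P1F, was at 6.98, 76.0 and 25.03 CPM and was called lower in iCD8a than in ILC1. Clec2h was at 2.41, 4.41 and 27.4 CPM and was called higher in CD11b+ than in the other libraries. Epithelial markers, 9 of 9 of them detected in each library, also had their highest sum there (466, 164 and 1197 CPM). The part of epithelial transcripts in the Clec2h level was not tested. The remaining listed Clec2 genes in the files, Clec2e, Clec2f, Clec2g and Clec2j, were called in 0 of the 3 comparisons, with Clec2e highest among them at 2.3 CPM in CD11b+.

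**Figure D3:**
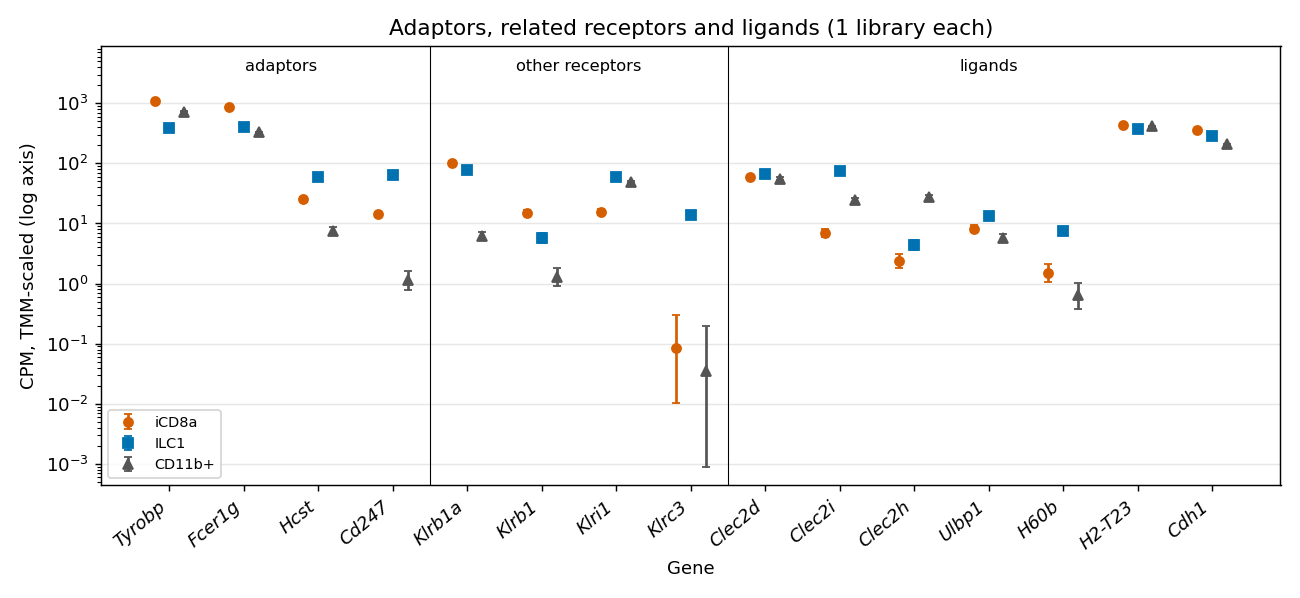
Level in CPM (log axis) of adaptor genes, related receptor genes and ligand genes in the iCD8a, ILC1 and CD11b+ libraries, with 95% exact Poisson intervals. Tyrobp and Fcer1g are highest in iCD8a (1102 and 870.3 CPM), Klrb1a is close between iCD8a and ILC1 (103 and 78.7 CPM), and Clec2h is highest in CD11b+ (27.4 CPM).

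Klrg1 (ENSMUSG00000030114), an inhibitory receptor of differentiated natural killer and effector T cells, was the scarcest member in ILC1 both in CPM and per kilobase. It had 5.08 CPM (4.21 to 6.07) in iCD8a, 16.8 CPM (15.1 to 18.6) in ILC1 and 0.567 CPM (0.324 to 0.921) in CD11b+. The order was ILC1, iCD8a, CD11b+ with no overlap between intervals. ILC1 exceeded iCD8a by 3.31-fold (2.69 to 4.1), which does not pass the rule, and iCD8a exceeded CD11b+ by 8.95-fold (5.29 to 16.2), on 120 and 16 counts. Of the cadherin genes that encode KLRG1 ligands, Cdh1 (E-cadherin) was at 359 CPM (iCD8a), 289 (ILC1) and 208 (CD11b+). Epithelial markers were read in every library (summed levels 466, 164 and 1197 CPM), and the part of epithelial transcripts in the Cdh1 level was not tested. Cdh2 and Cdh4 stayed under 1 CPM in each library.

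Set against the CD11b+ library, iCD8a was called higher for 3 of 10 members, Klrd1, Klrb1c and Klrg1, and lower for Klrk1. Among all genes that reached 5 CPM in either library, 6.13% were called higher in iCD8a and 13.4% higher in CD11b+. Of the 10 members, 7 reached that level. Klrc1, Klrc2 and Klre1 stayed under it in both. The median log2 ratio of iCD8a over CD11b+ was 1.13 over the members and 0.04 over all genes. At a minimum fold of 8 Klrd1 and Klrk1 lost their calls.

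ILC1 was called higher than CD11b+ for 10 of 10 members and lower for 0, against 6.01% of all genes called higher in ILC1 and 13% higher in CD11b+. Klrb1c, a marker of the ILC1 sort, is among the 10. The folds ran from 8.8 for Klrd1 to 535 for Klrc2 (299 to 1073), with a member median log2 ratio of 5.03 against 0.0028 over all genes. As a share of the ILC1 level, the CD11b+ library held 11.4% of Klrd1, 6.49% of Klri2, 4.66% of Klrb1f, 4.18% of Klrk1, 3.37% of Klrg1, 2.7% of Klrb1b and 2.69% of Klrb1c. The shares of Klre1, Klrc1 and Klrc2 were 0.339%, 0.261% and 0.187%. Markers of natural killer cells in the same library ranged from 0.245% for Eomes and 0.563% for Ncr1 to 9.36% for Il2rb and 17.4% for the integrin chain Itga1. Like Klrb1c, Ncr1 encodes a marker of the ILC1 sort. The part of natural killer cells or their RNA in the CD11b+ levels was not tested.

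**Figure D4:**
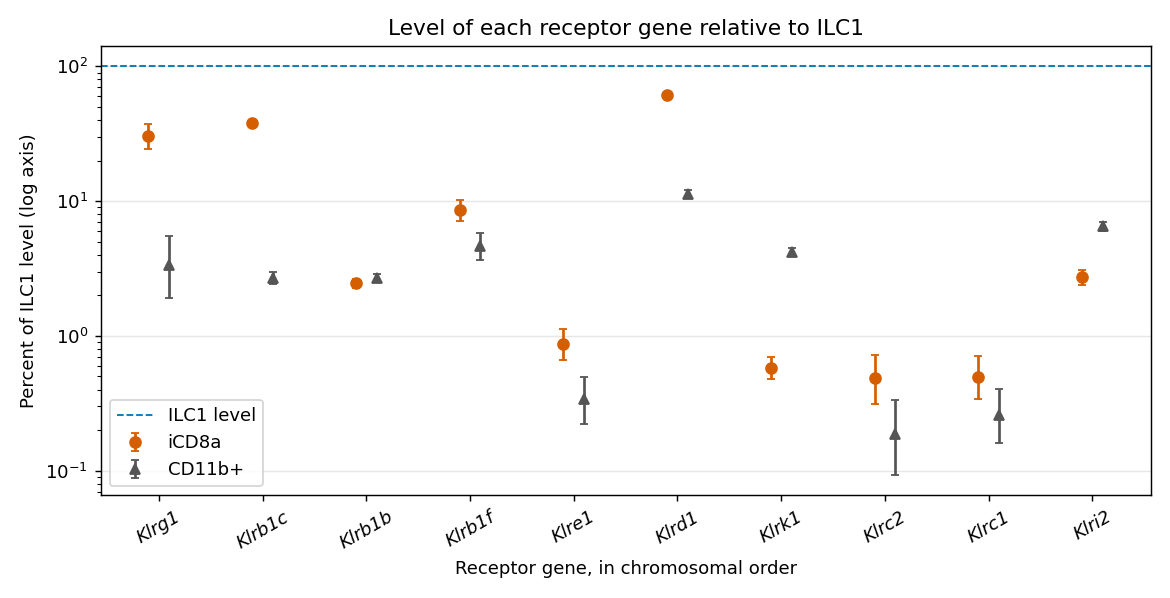
Level of each receptor gene in iCD8a and CD11b+ as a percentage of its ILC1 level (log axis), genes in chromosomal order, with 95% exact conditional binomial intervals; the dashed line marks the ILC1 level. Klrd1 stands at 61.7% in iCD8a between its neighbours Klre1 at 0.872% and Klrk1 at 0.581%.

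Some neighbouring genes had like shares of the ILC1 level and others did not. Klrk1, Klrc2 and Klrc1 stood in iCD8a at 0.581%, 0.487% and 0.498%. In the same library, Klrd1 at 61.7% of its ILC1 level lay between Klre1 at 0.872% and Klrk1 at 0.581%, and Klrb1c at 38.0% lay beside Klrb1b at 2.46%. The ILC1 level that the Klrb1c share is taken from was selected by the gate. The RUNX core shown above was found before Klrb1c, which iCD8a kept at 38.0%, as well as before Klrk1, Klrc1, Klrc2 and Klre1, which it held at under 1%. Klrd1 and Klrg1 had no window to search, and the part of the motif in these levels was not tested. In CD11b+ the same cluster ran from 0.187% for Klrc2 to 11.4% for Klrd1. The plot of receptor genes among all genes places Klrc1, Klrc2 and Klre1 together at the low end of both axes and Klrd1, Klrb1c and Klrg1 nearer 0 on the iCD8a axis. Its axes share the ILC1 library, so a gene high in ILC1 lies low on both.

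**Figure D5:**
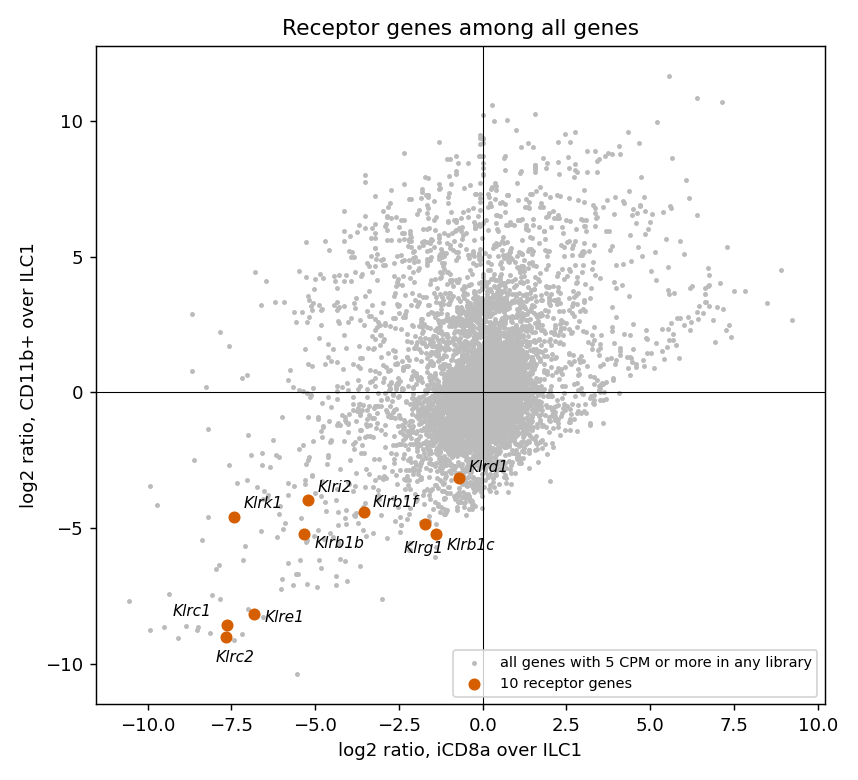
Log2 ratio of iCD8a over ILC1 (horizontal) against log2 ratio of CD11b+ over ILC1 (vertical), with a prior count of 0.5, for the 10 receptor genes (orange) and the 11063 genes that reached 5 CPM in any library (grey). All 10 receptor genes lie below 0 on both axes, which share the ILC1 library.

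Among 7980 other protein-coding genes that reached 20 CPM in any library, likeness was measured as the distance between the pairs of log2 ratios to ILC1, over 3 libraries. The nearest to Klrd1 were B3galt5 (distance 0.133, at 182, 269 and 30.3 CPM in iCD8a, ILC1 and CD11b+) and Cers4 (0.154). Sh2d2a, at 365, 1184 and 39.1 CPM, was nearest to Klrb1c (0.419) and second to Klrg1 (0.0835). Plod2 was nearest to Klrg1 (0.0197) and second to Klrb1c (0.51). In CD11b+, Klrg1 rests on 16 counts, at 1.91% to 5.55% of its ILC1 level. Its distances are below that counting error, so the order of its neighbours is not settled. Nor is the order settled for Klrd1, which ranged from 10.6% to 12.1% of its ILC1 level in CD11b+, wider than the gap between its distances. For Klrb1c it rests on Plod2, at 1.7 CPM in CD11b+, and is not settled either. The nearest to Klrk1 lay farther off: Il18rap, an interleukin 18 receptor chain at 5.42, 535 and 15.4 CPM, lay at 0.965 and Tnfrsf25 at 1.09.

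Of 8 kinases and proximal signalling genes that act below these receptors, 0 were called between iCD8a and ILC1, and the kinases Lck and Zap70 were at 709.8 against 573 and 370.4 against 381 CPM. Of 3 phosphatases recruited by inhibitory tails, 0 were called, and Ptpn6, which encodes SHP-1, was 2.25-fold higher in iCD8a (2.16 to 2.33), at 391 against 174 CPM. Over all genes that reached 5 CPM in either library, 4.89% were called higher in ILC1 and 3.52% higher in iCD8a. For lists this short, 0 calls is near those shares and does not set them apart from other genes. Against CD11b+, Lck, Fyn and Zap70 were called higher in both lymphoid libraries, and Syk was called higher in CD11b+ than in ILC1, at 756 against 135 CPM.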

How the data were processed

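Gene counts from 3 libraries, 1 per population, were compared. Groups follow the cell type label. What the authors deposited are raw counts of reads for each Ensembl gene, aligned with TopHat and counted with HTSeq per the labels of the series' design. The submitters' processing notes name CASAVA 1.9 and TopHat2. For genome build, annotation and strand setting: not given in the sources used here. The 5 rows that name no gene were left out, of which reads aligned to several places made up 26.9% (iCD8a), 34.5% (ILC1) and 30.5% (CD11b+) of all rows.

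Symbols and exon lengths came from GENCODE M21, which matched 35449 of 37224 IDs. TMM factors (edgeR 4.0.16, R 4.3.3) were 1.09, 0.992 and 0.925 for iCD8a, ILC1 and CD11b+. With 1 library a group edgeR and DESeq2 1.42.0 gave scaling alone, and no p-value was computed. Intervals used scipy 1.17.1. List medians used a prior count of 0.5 and members that reached 1 CPM in any library.

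The members, lists and call rule were chosen with earlier results of these data known. Named were all members, the genes nearest in pattern to Klrk1, Klrd1, Klrb1c and Klrg1, and pathway genes by list, chiefly the most abundant. Protein sequences were not used here.

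On simulated Poisson counts (iCD8a against ILC1, 9701 genes), the rule recovered 0% of genes simulated 2-fold apart, 48% of those 4-fold apart and 100% of those 8-fold or 16-fold apart, and called 0% of unchanged genes. These counts held counting error alone, so the shares follow largely from the minimum fold of 4. They give no rate of false calls between animals or sorts. Alternatives were other scalings (total count, DESeq2, upper quartile), no CPM minimum, thinning to 21678113 counts, removal of mitochondrially encoded genes, a fold of 8, a prior count of 2, a 5 CPM list minimum, and longest-transcript length.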

Additional observations from a re-analysis of the deposited data

How the results depend on the processing

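No paired analysis was possible because each population has 1 library. The 7 calls between iCD8a and ILC1 and the 10 between ILC1 and CD11b+ were kept, gene by gene, under each of the 7 alternatives run, and the 4 between iCD8a and CD11b+ under all but the fold of 8, which dropped Klrd1 and Klrk1 and left 0 members higher in CD11b+. The member medians stayed inside the median member interval under every alternative run. Of 150 single member ratios recomputed, 17 moved beyond their counting interval, by at most 0.238 on the log2 scale (CPM by total gene count). One of them, the uncalled Klrb1b log2 ratio of iCD8a over CD11b+, changed sign under that scaling, from −0.13 to 0.11. Thinning shifted a ratio by up to 0.508, that of Klre1 between ILC1 and CD11b+, which stayed inside its interval.

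Counts over all genes moved more. Without a CPM minimum, 642 genes were higher in iCD8a and 868 higher in ILC1. The same setting gave 1036 higher in iCD8a and 2454 higher in CD11b+, and 976 higher in ILC1 with 2286 higher in CD11b+. A fold of 8 left 202 genes for iCD8a over ILC1 and 305 for ILC1 over iCD8a. It left 273 genes higher in iCD8a and 1028 higher in CD11b+, and 297 higher in ILC1 with 943 higher in CD11b+. These settings change how many genes can be called by construction. Depth limits Klrc1, Klrc2, Klre1 and Klrg1 most, which had 11 to 26 counts in CD11b+.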
